A study of Mus musculus with 24 samples.

Results

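The 9 genes described here encode the contractile apparatus of smooth muscle: Acta2, Actg2, Myh11, Tagln, Des, Cnn1, Lmod1, Mylk and Smtn (listed in the table as ACTA2, ACTG2, MYH11, TAGLN, DES, CNN1, LMOD1, MYLK and SMTN). They are listed by name and are 9 of the 18097 targets of the gene table. The signal came from 24 Illumina MouseRef-8 bead arrays of total RNA from mouse colon. Labels describe 4 groups: wild type mice on vehicle (4 arrays), ApcMin mice on vehicle (8 arrays), ApcMin mice on naproxen at 10 mg/kg (6 arrays) and ApcMin mice on ATB-346 at 14.5 mg/kg (6 arrays). ApcMin mice carry a germline mutation in a single copy of Apc and develop intestinal tumours, and the strain label of every sample is C57Bl/6. Naproxen is a non-steroidal anti-inflammatory drug, and the series title calls the second drug a hydrogen sulfide-releasing member of that class. Dosing began at 6 weeks of age, by gavage once a day for 7 days, with DMSO and carboxymethylcellulose as the vehicle. Mice were killed when 14 weeks old and their colon taken, which was 7 weeks past the end of dosing, so every value describes tissue long after exposure. The 2 drugs were given at different doses by weight. Whether each array stands for a separate mouse is not given in the labels, so each p-value measures only the spread between these arrays, which may be technical.

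The wall of the colon holds a circular and a longitudinal layer of smooth muscle outside the mucosa, and a thin muscularis mucosae beneath the crypts. Contraction begins when calcium binds calmodulin, which activates myosin light chain kinase, the product of Mylk. The kinase phosphorylates the light chains of smooth muscle myosin, whose heavy chain is encoded by Myh11, and the myosin then pulls on actin filaments of the α (Acta2) and γ (Actg2) smooth muscle types. Calponin (Cnn1), transgelin (Tagln), smoothelin (Smtn) and leiomodin (Lmod1) bind these filaments, and desmin (Des) forms the intermediate filaments that link the dense bodies. Many of these genes are known targets of serum response factor and its partner myocardin, which act through a promoter element called the CArG box. Acta2 is also expressed by pericytes and activated fibroblasts, while Actg2 is the main smooth muscle actin of the gut.

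Promoter sequences are shown because the genes rose and fell together across arrays, as described further on. The RefSeq promoter table (build GRCm38.p6) held 6 of the 9 genes, namely Acta2, Cnn1, Des, Lmod1, Mylk and Smtn, and the 250 bases before each start were searched for the CArG box on both strands. Each start is that of the listed promoter, which for Mylk lies inside the annotated gene. The Acta2 and Cnn1 windows partly overlap their annotated genes. No strict CArG box was found in these 6 windows, and 1.47% of the 32851 promoter windows in the table held one. A near match, with at most 1 C or G in the 6-base centre, was found in the Acta2 window alone, against 8.59% of all windows with a strict or near match. The Acta2 window lies on the minus strand at chr19:34255374-34255623. Its near matches, in capitals, begin 84 and 34 bases before the start of the listed promoter. Both lie inside the annotated Acta2 gene, which covers most of this window.
Acta2: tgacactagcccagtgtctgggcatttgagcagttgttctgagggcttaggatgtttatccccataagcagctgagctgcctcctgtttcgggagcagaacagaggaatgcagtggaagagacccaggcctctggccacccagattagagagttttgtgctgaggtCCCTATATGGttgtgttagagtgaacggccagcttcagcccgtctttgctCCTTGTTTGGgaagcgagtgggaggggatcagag
The windows of Des (plus strand, chr1:75360042-75360291) and Mylk (plus strand, chr16:34784700-34784949) are shown next, since those genes were the pair least alike across arrays; neither holds a match.
Des: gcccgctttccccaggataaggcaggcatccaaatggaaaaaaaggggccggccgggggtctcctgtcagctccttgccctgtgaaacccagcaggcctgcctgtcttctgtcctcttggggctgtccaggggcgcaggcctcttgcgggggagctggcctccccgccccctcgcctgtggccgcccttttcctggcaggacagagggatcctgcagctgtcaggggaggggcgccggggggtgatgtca
Mylk: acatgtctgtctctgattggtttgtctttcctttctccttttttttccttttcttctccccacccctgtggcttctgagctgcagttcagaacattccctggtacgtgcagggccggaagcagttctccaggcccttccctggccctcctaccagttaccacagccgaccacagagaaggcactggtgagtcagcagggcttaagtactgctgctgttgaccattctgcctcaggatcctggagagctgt

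Levels below are log2 normalized signal, obtained from the deposited bead intensities by background correction, quantile normalization and the logarithm, and each mean is given ± SD over the arrays of its group. Array medians of the deposited intensity ran from 81.4 to 102.9, and the correlation between any pair of arrays from 0.928 to 0.994. All 9 genes passed the filter on low values, which kept the 9048 targets with a mean level above 6.54. The precision of every comparison is limited by the number of arrays. Because whole tissue was measured, fewer muscle cells and less RNA per muscle cell cannot be told apart. Markers of skeletal muscle were mostly dim: 3 of 10 passed the filter, and the fast myosin heavy chains Myh1 and Myh4 had means of 5.96 and 5.88 where the lowest normalized value was 5.65. Colon epithelium was well represented, with 8 of 9 markers past the filter and Krt8, an epithelial keratin, at a mean of 14.74.

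None of the contractile genes passed the threshold in any of the 4 comparisons tested. In limma's moderated test with Benjamini-Hochberg adjustment over all 9048 targets, 0 of 9 genes passed an adjusted p of 0.05 in any of the 4 comparisons, and the same held for the table as a whole (0% called in each). At an unadjusted p below 0.05 the table held 6.43% of targets for ApcMin vehicle against wild type, 6.98% for ATB-346 against vehicle, 8.73% for naproxen against vehicle and 6.48% for ATB-346 against naproxen. The 9 genes contributed 0, 0, 2 and 0 to these, and both of the naproxen ones were higher, as were 5.82% of all targets in that comparison. The wild type group had the lowest mean of the 4 groups for 7 genes and the ApcMin vehicle group for the other two, Des and Lmod1. Naproxen had the highest mean for 5 genes (Acta2, Myh11, Lmod1, Mylk and Smtn) and ATB-346 for 4 (Actg2, Tagln, Des and Cnn1). No difference passed the threshold in the 4 comparisons tested, which do not set wild type against naproxen or ATB-346. The ranges of the compared groups overlapped in all 36 sets of gene and comparison. The share of all tested targets with such overlap was not counted, so this is not particular to the 9 genes.

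**Figure D1:**
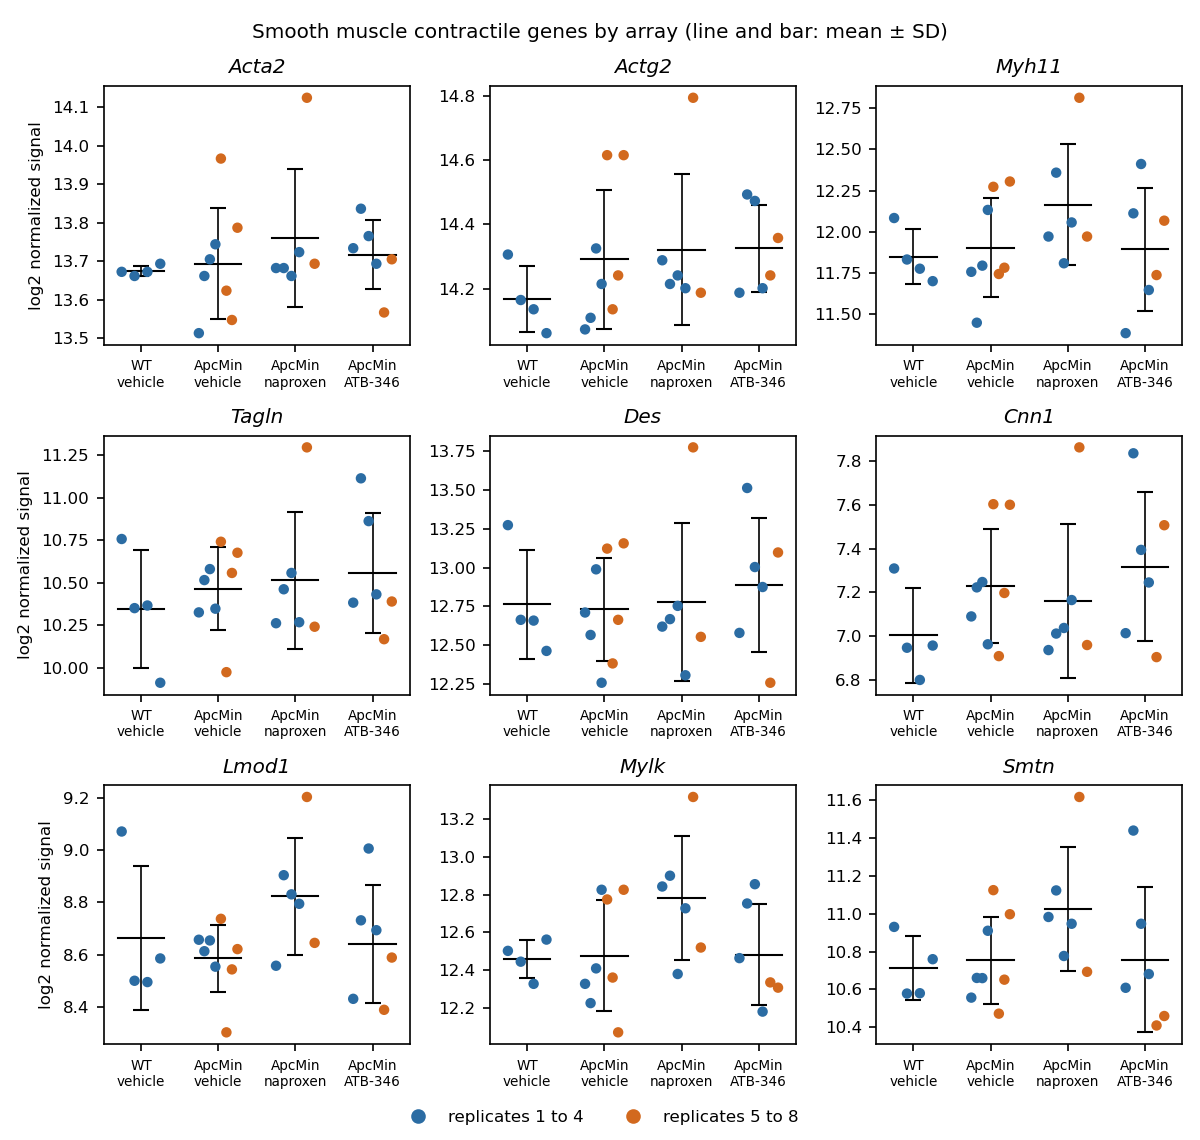
Log2 normalized signal of each of the 9 genes in each array, by group, with the group mean (line) and SD (bar). Blue points are arrays numbered 1 to 4 and orange points arrays numbered 5 to 8; the highest point of every panel is naproxen replicate 5.

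Myosin and its kinase are described first, since they drive the contraction. In wild type colon, Myh11 stood at 12.08, 11.83, 11.78 and 11.70 in replicates 1 to 4. Its lowest, median and highest levels were 11.45, 11.79 and 12.31 on ApcMin vehicle, 11.81, 12.01 and 12.81 on naproxen, and 11.39, 11.90 and 12.41 on ATB-346. All 6 naproxen arrays lay above the vehicle median for this myosin heavy chain and 2 lay above the highest vehicle array, yet the ranges overlapped. The difference between naproxen and vehicle was 0.26 ± 0.17 (SE; adjusted p = 0.652 by limma).

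Mylk had levels of 12.50, 12.44, 12.33 and 12.56 in the 4 wild type arrays. Its lowest, median and highest values were 12.07, 12.38 and 12.83 on ApcMin vehicle, 12.38, 12.79 and 13.32 on naproxen, and 12.18, 12.40 and 12.86 on ATB-346. The naproxen group thus reached from the middle of the vehicle range to above its top, with 3 of 6 arrays above the highest vehicle array. The kinase gene showed the largest naproxen difference of the 9, at 0.30 (95% interval 0.0085 to 0.60), a fold of 1.24. Its unadjusted p was 0.0443 and its adjusted p 0.564 by limma. Both Mylk probes gave similar values, 0.28 and 0.33.

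The actins come next. Acta2, the α actin, stood at 13.67, 13.66, 13.67 and 13.69 in wild type colon. Its lowest, median and highest levels were 13.51, 13.68 and 13.97 on ApcMin vehicle, 13.66, 13.69 and 14.12 on naproxen, and 13.57, 13.72 and 13.84 on ATB-346. The wild type arrays were nearly equal, and they lay inside the range of every ApcMin group. Actg2, the γ actin of gut muscle, had means of 14.17 ± 0.10 in wild type (n = 4), 14.29 ± 0.21 on vehicle (n = 8), 14.32 ± 0.23 on naproxen (n = 6) and 14.33 ± 0.14 on ATB-346 (n = 6). For both actins the 4 differences were small, with the largest, Actg2 in ApcMin vehicle against wild type, at 0.12 ± 0.11 (SE; adjusted p = 0.773 by limma).

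Among the filament-binding proteins, Lmod1, which nucleates actin filaments, stood at 9.07, 8.50, 8.49 and 8.59 in wild type replicates 1 to 4. The lowest, median and highest levels were 8.30, 8.62 and 8.74 on ApcMin vehicle, 8.56, 8.81 and 9.20 on naproxen, and 8.39, 8.64 and 9.01 on ATB-346. Wild type replicate 1 stood apart from its group, and 4 of 6 naproxen arrays lay above the highest vehicle array. Naproxen exceeded vehicle by 0.24 (95% interval 0.012 to 0.46), with an unadjusted p of 0.0395 and an adjusted p of 0.564 by limma.

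Smtn, a cytoskeletal protein of contractile smooth muscle cells, had means of 10.71 ± 0.17, 10.75 ± 0.23, 11.02 ± 0.33 and 10.76 ± 0.38 in wild type, vehicle, naproxen and ATB-346. All 6 naproxen arrays exceeded the vehicle median, and the difference of 0.27 ± 0.15 (SE) had an adjusted p of 0.611 by limma. The 3 Smtn probes gave 0.21, 0.30 and 0.27. Tagln, an actin cross-linker, and Cnn1, an inhibitor of the myosin ATPase, did not share that pattern: only 2 and 1 of the 6 naproxen arrays exceeded the vehicle median. Tagln means were 10.35 ± 0.35, 10.46 ± 0.24, 10.51 ± 0.40 and 10.56 ± 0.35 in the same order of groups. Cnn1 gave the largest difference between genotypes, with 7.00 ± 0.22 in wild type and 7.23 ± 0.26 in ApcMin vehicle, a difference of 0.23 ± 0.18 (SE; adjusted p = 0.751 by limma). Its probe was dim, at 105.6 to 283.5 intensity units, where array medians reached 102.9.

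Desmin had the widest spread of the 9. Des stood at 13.27, 12.66, 12.66 and 12.46 in wild type replicates 1 to 4. Its lowest, median and highest levels were 12.26, 12.69 and 13.16 on ApcMin vehicle, 12.31, 12.64 and 13.77 on naproxen, and 12.26, 12.94 and 13.51 on ATB-346. Wild type replicate 1 and naproxen replicate 5 were the highest arrays of their groups, and the ranges of the compared groups overlapped. Des gave the largest ATB-346 difference from vehicle, 0.16 ± 0.21 (SE; adjusted p = 0.996 by limma).

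Across the 9 genes the median difference for ApcMin vehicle over wild type was 0.042, where the median of all tested targets was -0.029. The corresponding medians were 0.034 against 0.013 for ATB-346 over vehicle, 0.068 against 0.0098 for naproxen over vehicle, and -0.045 against 0.0031 for ATB-346 over naproxen. The genes were higher in the first-named group in 7, 8, 8 and 4 of 9 cases, while 41.1%, 55.4%, 53.5% and 51.2% of all tested targets were. These counts depended on the replicate numbers, which reach 5 to 8 in the ApcMin groups alone. In arrays numbered 1 to 4, 3 of the 9 genes were higher in ApcMin vehicle than in wild type, and all 9 were higher on ATB-346 than on vehicle. In arrays numbered 5 to 8 (2 ATB-346 and 4 vehicle arrays), all 9 were lower on ATB-346 than on vehicle, from -0.062 for Lmod1 to -0.38 for Smtn. The genotype and drug comparisons share the 8 vehicle arrays, so their directions are not independent. The 9 genes also moved together within groups (median r between pairs 0.73), so the counts do not rest on 9 separate observations. For Mylk, ATB-346 was lower than naproxen by a difference of -0.30 (95% interval -0.62 to 0.017; adjusted p = 0.775 by limma), a fold of 0.812 with an interval of 0.652 to 1.01.

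**Figure D2:**
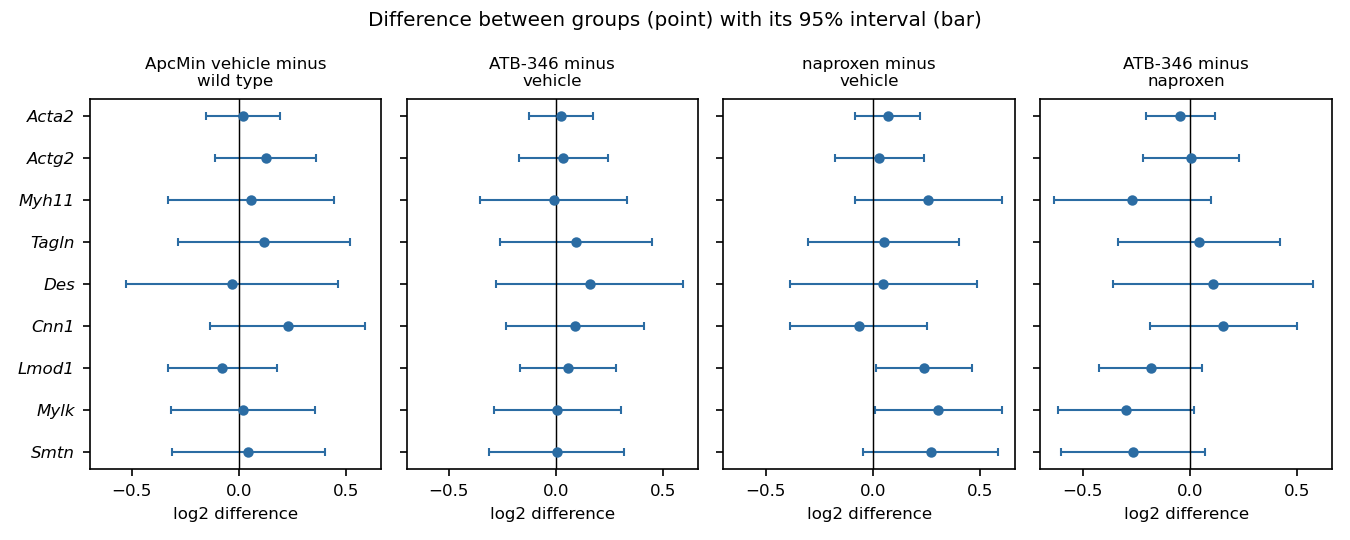
Difference in log2 normalized signal (x axis) for the 9 genes (y axis) in the 4 group comparisons, with 95% intervals from limma. Only the intervals of Lmod1 and Mylk for naproxen against vehicle lie clear of 0, at lower bounds of 0.012 and 0.0085, and neither passed the adjusted threshold.

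A single naproxen array weighed on these values. Naproxen replicate 5 had the highest level of all 24 arrays for each of the 9 genes, and for 8 of 9 when arrays were scaled to a common median in place of quantile normalization. How many of all tested targets were highest in that array was not counted. Without naproxen replicate 5, the naproxen difference was 0.16 for Lmod1, 0.20 for Mylk, 0.13 for Myh11 and 0.15 for Smtn, with unadjusted p-values of 0.142, 0.164, 0.418 and 0.305 by limma. The remaining 5 genes then had differences of -0.21 (Cnn1) to -0.0049 (Acta2). Within arrays numbered 1 to 4, which exclude that array, the differences were 0.15 for Lmod1, 0.27 for Mylk, 0.27 for Myh11 and 0.26 for Smtn. These genes had the largest naproxen differences over all arrays. Of all 9 genes, 6 were higher and 3 lower in arrays 1 to 4, with a median of 0.056. Within arrays numbered 5 to 8 the differences of Lmod1, Mylk, Myh11 and Smtn were 0.37, 0.41, 0.37 and 0.34, from 2 naproxen and 4 vehicle arrays. There all 9 genes were higher. Markers of other cells differed between naproxen and vehicle in both directions, none past the adjusted threshold. All tested were higher for enteric neurons (4 of 4, median difference 0.25), pericytes (6 of 6, 0.12), skeletal muscle (3 of 3, 0.31) and adipocytes (5 of 5, 0.63). For endothelium 3 of 4 were higher (0.063), for fibroblasts 4 of 8 (-0.086), for mesothelium 1 of 2 (-0.041) and for colon epithelium 2 of 8 (-0.054). For interstitial cells of Cajal 0 of 2 were higher (-0.28) and for pancreatic acinar cells 0 of 11 (-2.10). Their part in the differences of the contractile genes was not tested.

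The replicate numbers themselves marked a large difference in the table, and none of the 9 genes was among the targets called there. Only ApcMin groups have arrays numbered 5 to 8, and the labels do not say what those numbers stand for. Comparing them with arrays 1 to 4, with each group's mean fitted, called 37.1% of all tested targets at an adjusted p of 0.05 (limma; 1328 higher and 2030 lower) but 0 of the 9 genes. The smallest adjusted p among the 9 was 0.132, for Actg2, which was 0.16 higher in arrays 5 to 8. The naproxen and ATB-346 effects were also compared between the number ranges, and no target passed the adjusted threshold for either (limma; 286 and 366 at an unadjusted p below 0.05).

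Arrays of the same group differed, and the contractile genes moved together among them. The within-group SD of Des was 0.41, larger than that of 91.5% of tested targets. Tagln (0.33), Myh11 (0.32), Cnn1 (0.30), Smtn (0.29) and Mylk (0.28) also exceeded at least 81.2% of targets, whose median SD was 0.17. Lmod1 (0.21) and Actg2 (0.19) lay nearer that median, and Acta2 (0.13) lay below it. From the lowest to the highest array the levels spanned 2.86-fold for Des, 2.69-fold for Myh11 and 1.53-fold for Acta2.

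The deviations of the 9 genes from their means over 24 arrays show which arrays carried this spread. Naproxen replicate 5 stood 0.71 above the mean on average, with the smallest deviation at 0.41 (Acta2) and the largest at 0.99 (Des). Its deposited intensity reached 14997 for Des and 8017.9 for Myh11, and its array median of 102.9 was the highest of the 24. ATB-346 replicate 2 followed at 0.37, then vehicle replicate 5 (0.28), ATB-346 replicate 3 (0.25), vehicle replicate 8 (0.24) and wild type replicate 1 (0.16). Vehicle replicate 6 (-0.28) and ATB-346 replicate 5 (-0.27) were lowest. High and low arrays therefore occurred within the same group: ATB-346 held the second highest and the second lowest of the 24.

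**Figure D3:**
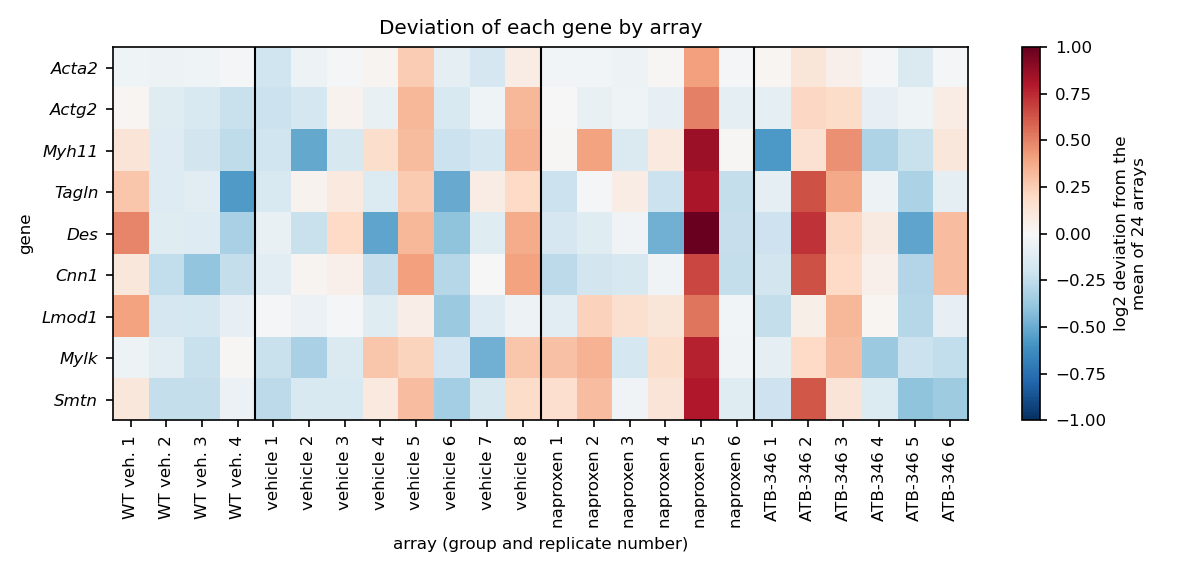
Deviation of each gene (rows) from its mean over 24 arrays, in log2 units, by array (columns), with lines between the 4 groups. Naproxen replicate 5 is red in every row, from 0.41 for Acta2 to 0.99 for Des.

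All 36 pairs of the 9 genes were correlated over the 24 arrays after the group mean of each gene was subtracted. Pearson's r ran from 0.48 (Des and Mylk) to 0.92 (Des and Cnn1), with a median of 0.73, and Spearman's rho from 0.27 to 0.81. In a permutation test of arrays within groups with 100000 resamples, two-sided, 36 pairs had an adjusted p of r below 0.05 and 32 pairs an adjusted p of rho below it (Benjamini-Hochberg over the 36). In this permutation test Des and Mylk had the largest adjusted p, 0.0373 for r and 0.241 for rho. For r, 4 pairs reached 1e-05, the smallest p these resamples can give. The resamples also moved arrays between the number ranges. The test thus cannot tell a link between genes from a shared difference between the ranges. The share of pairs of other tested targets that would pass was not counted. The counts of 36 and 32 were therefore not shown to be particular to the 9 genes. Without the 2 arrays farthest from the median of the first gene, r ran from 0.22 to 0.85, and without naproxen replicate 5 from 0.28 to 0.88.

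The pairs were also correlated within each range of replicate numbers. In the 16 arrays numbered 1 to 4, r ranged from 0.0050 to 0.84 with a median of 0.58, and in the 8 arrays numbered 5 to 8 from 0.72 to 0.99 with a median of 0.92. In arrays 1 to 4, Des correlated with Tagln (0.84) and Cnn1 (0.78), its r was 0.0050 with Mylk and 0.048 with Acta2, and Mylk correlated with Myh11 (0.78) and Smtn (0.70). Desmin, transgelin and calponin thus followed one another more closely there than they followed the kinase. Naproxen replicate 5 is among the 8 arrays of the second range. There the naproxen and ATB-346 groups hold replicates 5 and 6 alone, so their deviations from the group mean are equal and opposite. The r values of that range thus rest on fewer free values than its 8 arrays. The difference between the ranges was not tested.

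**Figure D4:**
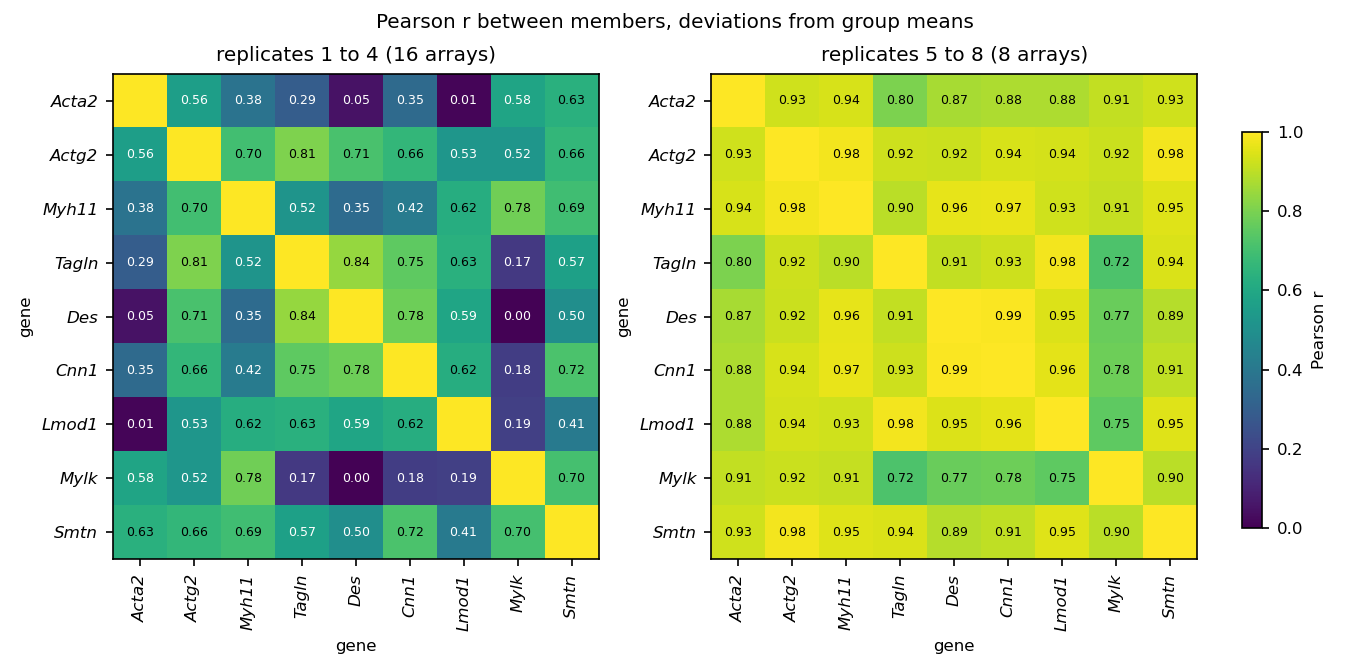
Pearson r between each pair of the 9 genes, from deviations from the group means, in the 16 arrays numbered 1 to 4 (left) and the 8 arrays numbered 5 to 8 (right); colour and printed numbers both give r. The left panel spans 0.0050 to 0.84 and the right 0.72 to 0.99.

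Acta2 has 4 probes on the array, and the gene table averages them. The brightest, ILMN_2693895, ran from 24476 to 36070 intensity units, near the highest value in the table (36652.2), with a within-group SD of 0.068. The other three had SDs of 0.26, 0.25 and 0.19. Their correlations with the mean of the other 8 genes over the 24 arrays were 0.64, 0.72 and 0.85, against 0.41 for the brightest. The mean of the 3 dimmer probes had an SD of 0.21, close to those of Lmod1 and Actg2. One dimmer probe, ILMN_2923445, was 0.22 higher on naproxen than on vehicle (unadjusted p = 0.0423, adjusted p = 0.56 by limma), and the other three differed by -0.044 to 0.059.

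**Figure D5:**
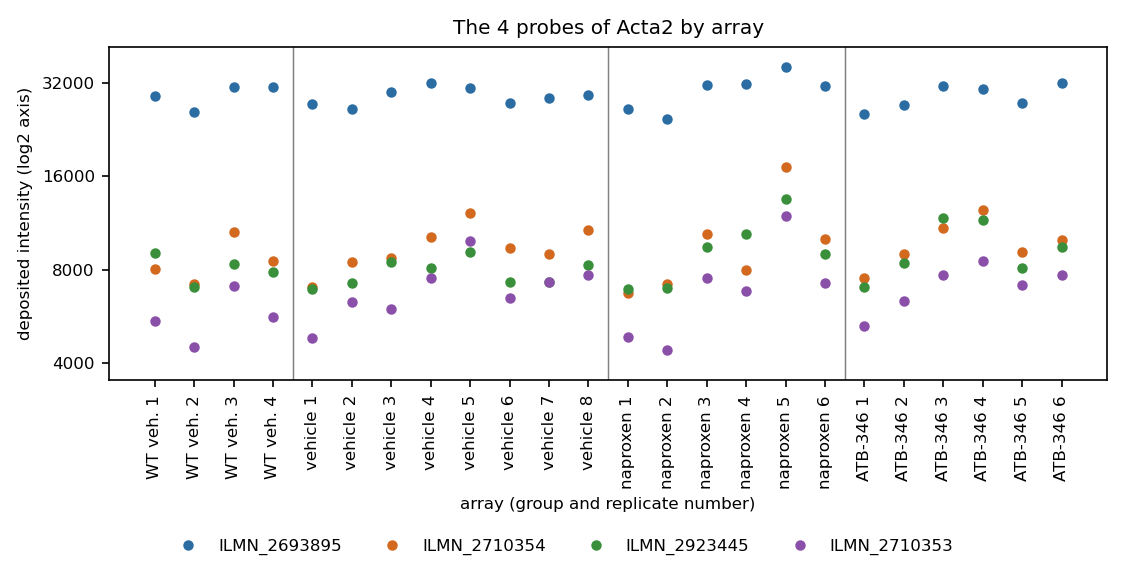
Deposited intensity (log2 axis) of the 4 Acta2 probes in each array, with lines between the groups. The brightest probe stays between 24476 and 36070 while the lowest of the dimmer probes ranges from 4379 to 11894; all 4 are highest in naproxen replicate 5.

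Other genes of the contractile and cytoskeletal apparatus followed the 9. Of 25 such genes listed, 21 were on the array and 16 passed the filter, and 13 of the 16 had an r above 0.5 with the mean level of the 9 genes (median 0.68, where the median over 9039 other tested targets was -0.011). These include the tropomyosin Tpm1 (0.87), the intermediate filament protein synemin, Synm (0.89), and the LIM-domain protein Csrp1 (0.89). None of the 16 was called between groups (0% of all targets). They were higher in ApcMin vehicle than in wild type in 13 cases, with a median of 0.068, and caldesmon, Cald1, had the smallest p at 0.43 ± 0.24 (SE; adjusted p = 0.737 by limma). Of the vehicle arrays 4 of 8 are numbered 5 to 8 and no wild type array is. With the number range as a block, a setting chosen after seeing the data, 7 of the 16 were higher and Cald1 differed by 0.060 ± 0.14 (SE; adjusted p = 1.00 by limma). In arrays 1 to 4 alone 3 of the 16 were higher, and the Cald1 difference was -0.028. On naproxen 12 were higher than on vehicle with a median of 0.032, led by the LIM protein Pdlim3 at 0.32 ± 0.13 (SE; adjusted p = 0.564 by limma). On ATB-346 8 were higher and 8 lower. Between the number ranges 7 of the 16 were called, 6 higher and 1 lower in arrays 5 to 8, beside 37.1% of all targets. Cald1 was higher by 0.75 and vinculin, Vcl, an adhesion protein, by 0.47, with adjusted p-values of 3.06e-06 and 0.000683 by limma.

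Regulators of contraction and of the muscle gene programme were more mixed. Of 20 listed, 13 passed the filter, and 5 had an r above 0.5, with a median of 0.31. Serum response factor, Srf, had an r of 0.85, the small heat shock protein Hspb6, which relaxes smooth muscle in its phosphorylated form, 0.84, and myocardin, Myocd, 0.60 (these 3 were named after their values were seen). None was called between groups. In ApcMin vehicle 8 of the 13 were higher than in wild type and 5 lower, with a median of 0.069. Myocd and the cGMP-dependent kinase Prkg1 were lower in ApcMin vehicle than in wild type by differences of -0.26 and -0.25, each with an adjusted p of 0.737 by limma. On naproxen 10 were higher than on vehicle and 3 lower, with a median of 0.050. Klf4, a repressor of the contractile programme that colon epithelium also expresses, differed by -0.41 between naproxen and vehicle (adjusted p = 0.569 by limma). The inhibitor of myosin phosphatase Ppp1r14a was 0.48 higher in arrays 5 to 8 (adjusted p = 1.58e-05 by limma), one of 3 of the 13 regulators called there, beside 37.1% of all targets.

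Channels, calcium handling genes and receptors were often dim: 10 of 19 on the array passed the filter. Kcnma1 and Kcnmb1, the subunits of the large-conductance potassium channel, had r of 0.79 and 0.71 with the 9 genes, and the muscarinic receptor Chrm3 had 0.66 (these 3 were named after their values were seen). Of the 10 genes 4 had an r above 0.5, the median was 0.44 and the lowest -0.38. None was called between groups. The calcium pump Atp2a2 was 0.28 ± 0.12 (SE) higher on naproxen than on vehicle, with an adjusted p of 0.564 by limma. Phospholamban, Pln, which restrains that pump, was 1.30 higher in arrays 5 to 8 (adjusted p = 5.68e-06 by limma), among 4 of the 10 genes called higher and 2 called lower there, beside 37.1% of all targets.

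Over all tested targets outside the 9, the central 95% of r with their mean level lay between -0.54 and 0.58, 35 targets exceeded 0.8 and 5 lay below -0.8. Predicted genes and accession-like names were left out of both rankings that follow. The most alike of the rest were Kdm1b (0.94), a histone demethylase, Popdc2 (0.93), a membrane protein of muscle, Dlg2 (0.90), a scaffold protein, and Fermt2 (0.89), which activates integrins. Synm, Csrp1, Myom1 (0.87), a sarcomere protein, Tpm1, Neurl1a (0.86), a ubiquitin ligase, and Il17d (0.86), a cytokine, completed the 10 highest. Kdm1b rose to 8.97 in naproxen replicate 5 from a lowest array of 8.27. The table lists Kdm1b, Synm and Neurl1a under the older names AOF1, DMN and NEURL. The most opposed were Pdzd3 (-0.87), an epithelial scaffold protein, Mrpl30 (-0.86), a mitochondrial ribosomal protein, Fabp6 (-0.85), a bile acid binding protein, Slc40a1 (-0.80), the iron exporter, and Sh3rf2 (-0.80). These correlations are descriptions over the same 24 arrays, which share the normalization.

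Markers of other cells gave the following values beside the 9 genes. The mean level of the listed markers correlated with that of the 9 genes at 0.57 for pericytes (6 of 6 tested), 0.49 for enteric neurons (4 of 10), 0.40 for fibroblasts (8 of 8), 0.26 for colon epithelium (8 of 9), 0.21 for interstitial cells of Cajal (2 of 2) and 0.13 for endothelium (4 of 6). It was -0.0096 for skeletal muscle (3 of 10), -0.059 for pancreatic acinar cells (11 of 11), -0.27 for mesothelium (2 of 4) and -0.39 for adipocytes (5 of 8). In naproxen replicate 5 the marker mean was the highest of its group for enteric neurons (9.02, lowest 8.51), for fibroblasts (10.39, lowest 9.45), for pericytes (7.69, lowest 7.37) and for endothelium (8.56, lowest 8.28). Without that array the correlation was 0.33 for neurons, 0.15 for fibroblasts, 0.48 for pericytes, 0.077 for interstitial cells of Cajal and -0.15 for endothelium. The part of these cells in the level of the contractile genes was not tested. Acinar markers were uneven among the groups, with mean levels of 6.44 to 13.96 on ApcMin vehicle, 6.60 to 9.94 on naproxen, 6.53 to 6.58 on ATB-346 and 6.52 to 6.84 in wild type.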

How the data were processed

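Total RNA from mouse colon was hybridised to Illumina MouseRef-8 v2.0 arrays, and per the file headers the authors exported average bead intensity per gene from GenomeStudio 1.7.0 without normalization. A deposited probe table of the same arrays also holds intensity, and where a gene has 1 probe (9359 genes) the tables differed by at most 0.05 units in 98.9% of values. Values were background corrected (limma 3.58.1 in R 4.3.3, normexp, offset 50, no control spots), quantile normalized and put on the log2 scale. A model with 1 mean per group over 24 arrays was fitted with lmFit and eBayes to 9048 of 18097 targets (mean above the median of 6.54), with Benjamini-Hochberg adjustment within each comparison at 0.05, and was tested on simulated data. Further fits compared replicates 5 to 8 with 1 to 4. The 10 most alike and 5 most opposed genes are those with the highest and lowest r with the mean of the 9. Predicted genes and accession-like names were left out of that ranking. From each list, at most 4 genes with the smallest p in a comparison are named. Members and lists were chosen with earlier results of these data known. Promoter sequences are from RefSeq, build GRCm38.p6; that of Actg2, Myh11 and Tagln was not used here. A result that needs an item withheld for evaluation is not reported here.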

Additional observations from a re-analysis of the deposited data

Results flagged for a closer look

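Of the 36 sets of a gene and a group, 7 had an array whose gap to the rest exceeded Dixon's limit, where chance gives about 1 in 20. In naproxen replicate 5, Acta2 stood at 14.12, Actg2 at 14.79, Tagln at 11.30, Des at 13.77 and Cnn1 at 7.86, each far above the other 5 naproxen arrays. Those 5 sets come from a single array and are not independent. Lmod1 stood apart at 9.07 in wild type replicate 1, above the others, and at 8.30 in vehicle replicate 6, below the others.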

How the results depend on the processing

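No setting called any of the 9 genes: their smallest adjusted p was 0.111 over 320 values from other settings and 0.0639 over 1080 values with 1 array left out, and 41 and 86 of these values changed sign. The count of all targets called stayed at 0 in the group comparisons, with these exceptions. At an unadjusted p below 0.05 it was 582, 632, 790 and 586 (4176 between the number ranges, where it otherwise ran from 2871 to 3678). For ATB-346 over vehicle it was 1 from the probe table, 28 with the number range as a block, 16 in arrays 1 to 4 alone and 6 with a replicate block. Leaving out 1 array gave 0 to 1 in the group comparisons and 2924 to 3388 between the number ranges. Same-numbered arrays of different groups had correlations of their deviations from -0.68 to 0.69 (30 pairs, median 0.24, 19 above 0.1), and other-numbered arrays a median of -0.052 (182 pairs, 64 above 0.1). Since not every same-numbered pair exceeded 0.1 and the labels do not say what a number marks, the replicate block is given here only. Values that changed sign follow, as log2 differences; the cause was not tested. With arrays scaled to a common median, ApcMin over wild type was -0.035 for Acta2, -0.012 for Mylk, and ATB-346 over vehicle was 0.051 for Myh11, and naproxen over vehicle was -0.083 for Actg2, and ATB-346 over naproxen was 0.035 for Acta2, and arrays 5 to 8 over 1 to 4 was -0.032 for Tagln, -0.014 for Mylk. From the brightest probe of each gene in the probe table, ApcMin over wild type was -0.020 for Acta2, -0.0034 for Smtn, and ATB-346 over vehicle was -0.0049 for Smtn, and arrays 5 to 8 over 1 to 4 was -0.023 for Acta2, -0.043 for Mylk. With the number range as a block, ApcMin over wild type was -0.012 for Acta2, -0.046 for Myh11, and ATB-346 over vehicle was 0.023 for Myh11, -0.0020 for Smtn. With a replicate block, ApcMin over wild type was -0.054 for Myh11, and ATB-346 over vehicle was 0.035 for Myh11, -0.0047 for Mylk. In arrays 1 to 4 alone, ApcMin over wild type was -0.019 for Acta2, -0.065 for Myh11, -0.012 for Mylk, -0.015 for Smtn, and ATB-346 over vehicle was 0.11 for Myh11, and naproxen over vehicle was -0.055 for Tagln, -0.044 for Des, and ATB-346 over naproxen was 0.070 for Acta2. In arrays 5 to 8 alone, ATB-346 over vehicle was -0.10 for Acta2, -0.10 for Actg2, -0.21 for Tagln, -0.15 for Des, -0.12 for Cnn1, -0.062 for Lmod1, -0.19 for Mylk, -0.38 for Smtn, and naproxen over vehicle was 0.084 for Cnn1, and ATB-346 over naproxen was -0.19 for Actg2, -0.49 for Tagln, -0.49 for Des, -0.21 for Cnn1. From the 3 dimmer Acta2 probes, a setting chosen after seeing the data, ATB-346 over naproxen was 0.014 for Acta2. With 1 array left out, ApcMin over wild type ran over -0.020 to 0.044 for Acta2, -0.13 to 0.14 for Des, -0.13 to 0.059 for Lmod1, -0.00058 to 0.14 for Myh11, -0.031 to 0.077 for Mylk, -0.011 to 0.11 for Smtn, -0.027 to 0.26 for Tagln. ATB-346 over vehicle ran over -0.0025 to 0.062 for Acta2, -0.016 to 0.17 for Cnn1, -0.019 to 0.10 for Lmod1, -0.11 to 0.090 for Myh11, -0.070 to 0.066 for Mylk, -0.13 to 0.073 for Smtn, -0.018 to 0.17 for Tagln. Naproxen over vehicle ran over -0.0049 to 0.11 for Acta2, -0.065 to 0.076 for Actg2, -0.15 to 0.14 for Des, -0.11 to 0.10 for Tagln. ATB-346 over naproxen ran over -0.068 to 0.028 for Acta2, -0.029 to 0.10 for Actg2, -0.017 to 0.31 for Des, -0.067 to 0.20 for Tagln. Arrays 5 to 8 over 1 to 4 ran over -0.0016 to 0.10 for Acta2, -0.011 to 0.30 for Des, -0.086 to 0.070 for Mylk, -0.15 to 0.030 for Smtn, -0.14 to 0.085 for Tagln. Small differences are limited by the number of arrays and, for Cnn1, by signal near the array medians.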

Other observations

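The level of Des against that of Mylk varied between arrays of the same group. Taken as the difference of their deviations from the 24-array means, it was lowest in vehicle replicate 4 (-0.81), naproxen replicate 4 (-0.66), naproxen replicate 2 (-0.47) and naproxen replicate 1 (-0.46). It was highest in ATB-346 replicate 6 (0.55), wild type replicate 1 (0.54), ATB-346 replicate 2 (0.52) and ATB-346 replicate 4 (0.46). No test was made of this difference, since both genes and the measure were picked after their values were seen.

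The within-group SDs of 4 non-muscle relatives lay toward the low end of the range of the muscle genes, which was 0.13 (Acta2) to 0.41 (Des). The Acta2 value includes a probe near the highest intensity, and the mean of its 3 dimmer probes had an SD of 0.21. Among the other muscle genes the lowest SD was 0.19 (Actg2), above those of Actb, Myh9 and Myh10. The SD was 0.14 for Actb, the β actin of all cells, 0.15 for the non-muscle myosin Myh9, 0.15 for Myh10 and 0.22 for the intermediate filament gene Vim. Of these, Myh10 had an r of 0.64 with the 9 muscle genes, Actb 0.36, Myh9 0.32 and Vim -0.02. In naproxen replicate 5, Actb stood at 12.74 against a mean of 12.84 over the 24 arrays.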
